A study of Mus musculus and Homo sapiens with 65 samples.

Results

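Late 2-cell mouse embryos whose RNA polymerase II had been blocked with alpha-amanitin were profiled by RNA-seq, and the RNA that remained in them is described here. The members are the 2 libraries that the labels give as alpha-amanitin treated 2-cell embryos, of 65 samples in the series and 9 RNA-seq libraries with a gene table. Within each library the genes with a quantification status of OK were used, 31584 in library 1 and 31583 in library 2. The 31583 genes that had this status in both stand for all genes below.

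The series followed broad domains of histone H3 lysine 4 methylation from the mouse oocyte into the early embryo. For comparison, 3 wild-type libraries of late 2-cell embryos were used, with 4 libraries of embryos that had received morpholinos, antisense oligomers, by injection as zygotes at 0.5 dpc. In 2 of these the morpholinos targeted the histone demethylase genes Kdm5a and Kdm5b, and in the other 2 they carried mismatches and served as injection controls. All 4 groups were cultured in G1 plus medium to the late 2-cell stage. The sources used here do not give the dose of alpha-amanitin, when and how it was applied, the mouse strain or the number of embryos per library. Nor do the labels say whether replicate libraries were collected separately, so p-values here reflect library-to-library spread alone, part of which may be technical.

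Alpha-amanitin is a mushroom toxin that binds RNA polymerase II and stops it from moving along the gene. A mouse oocyte builds up a large store of messenger RNA while it grows, falls silent before it is ovulated, and passes the store to the embryo. The embryo's own genome is broadly switched on at the 2-cell stage, at the time when most of the store is being destroyed. An embryo blocked with the toxin holds what is left of the store and very little new messenger RNA. In the results below, store and stored stand for the RNA found in the blocked embryos, and when that RNA was made was not tested. Many stored messages carry near their 3′ end a cytoplasmic polyadenylation element, a U-rich stretch bound by CPEB proteins, which lies close to the hexamer that directs cleavage and polyadenylation and takes part in keeping a message silent or waking it.

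The 3′ ends of several abundant stored transcripts are shown first, because this element is a known feature of stored messages and can be read directly from the sequence. In each line the first capitals mark the element, searched as TTTTAT or TTTTAAT, and the last capitals mark the hexamer, searched as AATAAA or ATTAAA. In Zbed3 and Trip12 the element and the hexamer share letters, so the whole line is in capitals. Each window lies in the 3′ UTR of 1 protein-coding transcript per gene in GENCODE release M21 on GRCm38 (mm10), is written in the sense of the gene, and ends within 23 bases of the annotated transcript end.
Zbed3, chr13:95337817-95337826, plus strand: TTTTAATAAA
Omt2a, chr9:78312018-78312033, minus strand: TTTTATaataAATAAA
Trip12, chr1:84721210-84721219, minus strand: TTTTAATAAA
Pld1, chr3:28133204-28133216, plus strand: TTTTATgAATAAA
Pan3, chr5:147548471-147548496, plus strand: TTTTAATaaagaattgcagaAATAAA
Wee2, chr6:40466768-40466793, plus strand: TTTTAATccagatcattgtaAATAAA
Lsm14a, chr7:34344664-34344687, minus strand: TTTTAATaaaggccatggAATAAA

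Transcripts with this element were more common among abundant stored RNAs than among genes as a whole. Of 321 genes at a mean of 100 FPKM or more with a 3′ UTR of at least 100 bases, 103 (32.1%) held the element in the last 100 bases, against 3392 of 18892 (17.95%) of all such genes. FPKM counts fragments per kilobase of transcript, scaled to the mapped fragments of the library, so levels can be compared between genes within a library and are shares of that library's RNA. The share was 22.3% at 10 to 100 FPKM and 21.1% among detected genes under 10 FPKM. It was 19.2% (69 of 360) among genes whose wild-type mean reached 10 FPKM but that lay under 1 FPKM in both alpha-amanitin libraries. Genes at 100 FPKM or more in wild type held the element at 31.2% (79 of 253), so the blocked embryos did not stand apart from wild type in this share. Only the sense strand of the transcript was searched, the 2 forms can overlap with each other and with the hexamer, and a match describes letters and not a site in use.

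**Figure D1:**
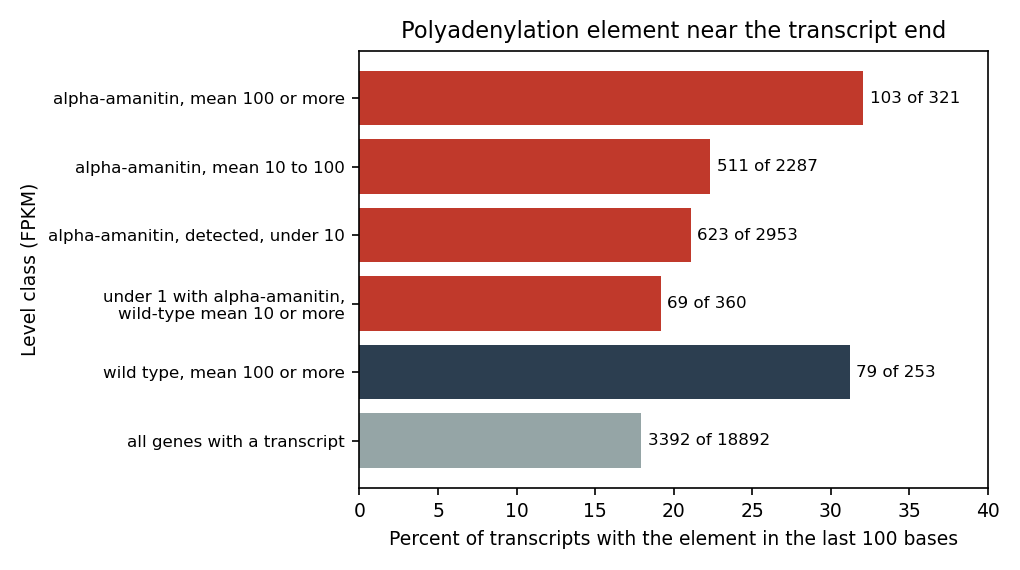
Percent of transcripts with a cytoplasmic polyadenylation element in the last 100 bases, by level class in FPKM (bars, 1 transcript per gene, with the counts printed beside each bar). The class at 100 FPKM or more stands at 32.1% with alpha-amanitin and 31.2% in wild type, above the 17.95% of all genes with a transcript.

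The abundant stored transcripts, like the other detected ones, were long and spliced. Genes at a mean of 100 FPKM or more had a median of 11 exons and a median 3′ UTR of 1256.5 bases, against 7 exons and 863 bases over all protein-coding genes with a transcript. Genes at 10 to 100 FPKM had 11 exons and 1327.5 bases, and detected genes under 10 FPKM had 10 and 1141. Genes at 100 FPKM or more in wild type had 9 exons and 1183 bases, so these traits were not particular to the abundant genes or to the blocked embryos. Only 1 of 326 (0.307%) was a single-exon gene, against 0.772% at 100 FPKM or more in wild type and 4.43% of all. The genes missing from the blocked embryos (under 1 FPKM in both, wild-type mean at least 10) had 6 exons and 773.5 bases. Across the 5698 detected protein-coding genes, the level and the transcript length were nearly unrelated (Spearman rho 0.084, a description across genes that share the same 2 libraries).

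The pool was concentrated in few genes. In library 1, 337 genes made up 50% of the summed FPKM (the sum over all genes of a library) and in library 2 it was 326 genes, while the other 7 libraries needed 670 to 827 genes. The 100 most abundant genes of each library held 32.7% and 33.4% of the sum, against 25.1%, 19.9% and 24.2% in wild type. The 10 most abundant held 15.1% and 16.4%, against 13.2%, 7.77% and 12.2% in wild type. Both shares were higher in each alpha-amanitin library than in any wild-type library, and the number of genes that made up 50% was lower. An exact permutation test (two-sided) gave p = 0.2 for each share, the smallest value that 2 libraries against 3 can give.

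Fewer genes were detected. An FPKM of 1 or more was reached by 7896 genes in library 1 and 7854 in library 2, against 10742, 10628 and 10822 genes in wild type, without overlap (exact permutation test, two-sided, p = 0.2, the smallest possible). Both alpha-amanitin libraries reached 1 FPKM at 6277 of 31583 genes, which is 19.9%, and at 27.2% of protein-coding genes. A further 3195 genes reached it in 1 library only, 22111 lay under 1 FPKM in both, and 13336 (42.2%) were listed at 0 in both. A value of 0 in these tables can be a failed estimate and is given as listed. At the upper end 340 and 376 genes stood at 100 FPKM or more, against 263, 344 and 293 in wild type, where the groups overlapped. Since FPKM is relative to the library, the amount of RNA per embryo cannot be read from it, and fewer cells with an RNA and less RNA per cell cannot be told apart in pooled embryos.

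**Figure D2:**
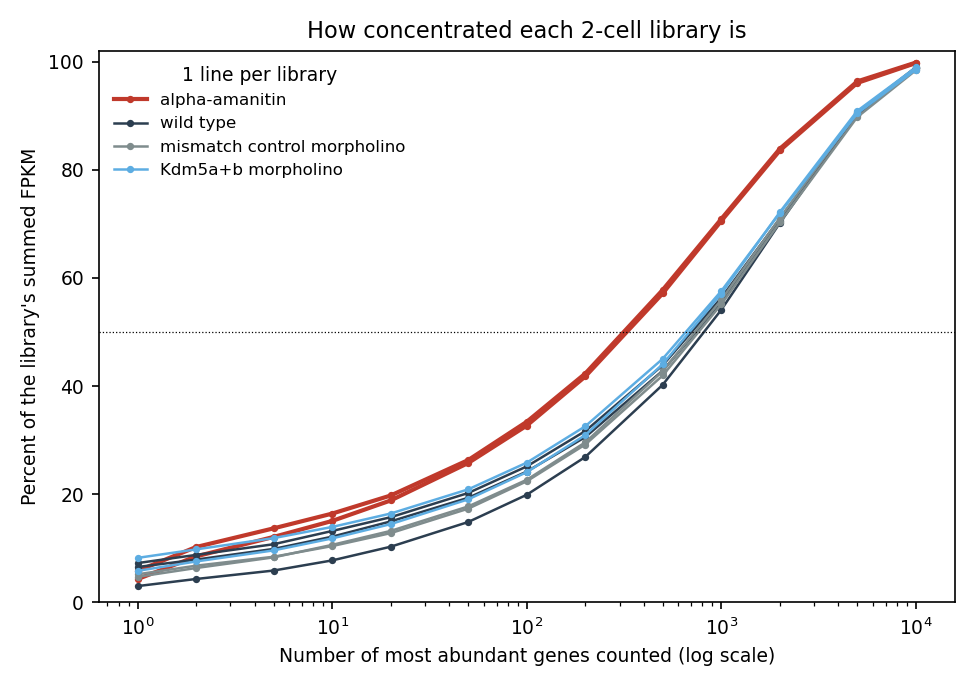
Percent of each library's summed FPKM (vertical axis) held by its most abundant genes, against the number of genes counted (horizontal log axis), 1 line per library. Both alpha-amanitin lines reach 50% at 337 and 326 genes, the other 7 libraries at 670 to 827.

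By gene type, protein-coding genes held 87.2% and 85.0% of the summed FPKM of the alpha-amanitin libraries, and long intergenic RNAs 7.12% and 8.79%. Processed pseudogenes, which are reverse-copied messages in the genome, held 3.87% and 4.09%. Their reads may come from parent genes of nearly the same sequence, so their values are uncertain. Of the 100 most abundant genes 88 were protein-coding, 5 were processed pseudogenes and 4 were long intergenic RNAs. Anp32b-ps1 led the pseudogenes at 571 and 502 FPKM.

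The most abundant row was Yam1, a long intergenic RNA gene at chr17:39846958-39848788 that GENCODE names Gm42418. It stood at 8460 and 12166 FPKM with alpha-amanitin and at 6941 to 15754 FPKM in wild type. All 1831 of its bases lie opposite an annotated ribosomal RNA gene, and the sources used here do not say whether counting used strand, so reads of ribosomal RNA cannot be told apart from reads of Yam1. Its FPKM was also above its own deposited upper bound in both libraries (7668 and 11058).

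Zbed3 was the most abundant protein-coding gene. ZBED3 is a part of the subcortical maternal complex, a protein assembly under the oocyte surface that the first cleavages need. Its level was 8251 FPKM in library 1 and 9209 in library 2, so it took 4.21% and 4.41% of all summed FPKM, and the wild-type libraries stood at 3024 to 3281. Both alpha-amanitin values were slightly below their own deposited lower bounds (8356 and 9320). The small nucleolar RNA genes Snora47 and Gm22661 lie inside Zbed3 on the same strand, and their share of its reads was not tested.

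Gm1965, a long intergenic RNA gene, followed at 3416 and 3718 FPKM. Gm839, another such gene less than 100000 bases away on chromosome 6, stood at 544 and 555 FPKM. Both pairs of values were close, and wild-type levels were lower for both genes (873 to 1125 FPKM for Gm1965 and 223 to 312 FPKM for Gm839).

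Among the 30 most abundant genes, several act in the ubiquitin system, which marks proteins for destruction, and 4 are oocyte genes by their known expression. This sorting by function was made after the genes were known. Each of the 5 described here stood above 400 FPKM in both libraries. Mdm4, an inhibitor of p53 related to the ubiquitin ligase Mdm2, stood at 1317 and 1248 FPKM. The ubiquitin ligase Trip12 stood at 835 and 737 and the chain-extending factor Ube4b at 655 and 454. Cul1, the scaffold of the SCF ubiquitin ligases, stood at 540 and 531 FPKM. Ube2k, a ubiquitin-conjugating enzyme, stood at 596 and 424. All 5 lay within 2-fold between the libraries.

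RNA-binding and chromatin genes were near the top. Rbm38, which encodes a protein that binds messenger RNA, stood at 2268 and 2032 FPKM. Spin1, the gene of spindlin, a reader of histone H3 methylation found in oocytes, stood at 1368 and 1446. Btg4, an adaptor that brings the CCR4-NOT deadenylase to maternal messages, stood at 481 and 557 FPKM. Smarca2, a chromatin remodelling ATPase, differed more between the libraries, at 409 and 702 FPKM. Auts2 differed by about as much, at 881 and 433 FPKM. Both values lay far above its own upper bounds of 196 and 156, so its level is uncertain. Rbm38 also lay above its own upper bounds in both libraries (1923 and 1747). So did Wasf2 (626 and 616), Pld1 (615 and 632), Ube4b, Cul1, Pan3, Trip12, 2010107G23Rik, Nup214 and Anp32b-ps1, so these levels are uncertain too. Inside their own bounds in both libraries were 247 of 343 genes at a mean of 100 to 1000 FPKM, and 3 of 9 at 1000 or more.

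Genes of the cytoskeleton and of signalling made up another 6 of the 30. Wasf2, an activator of branched actin, stood at 810 and 777 FPKM, the microtubule-associated gene Mtus1 at 682 and 707, and the polarity kinase gene Mark2 at 567 and 572. Peak1, the gene of a pseudokinase, stood at 1174 and 950 FPKM, and phospholipase D1 gene Pld1 at 723 and 716. Dusp7, a phosphatase of MAP kinases, was at 615 and 1076 FPKM and is the member of this set that differed most between the libraries.

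The remaining protein-coding genes of the 30 were Ccdc6 (1254 and 1285 FPKM), Omt2a and Omt2b (oocyte maturation genes, described with their family), Khdc1b (897 and 747), 2010107G23Rik (893 and 553), AU015836 (551 and 656) and the nuclear pore gene Nup214 (556 and 531). The row Trim61 (616 and 593 FPKM) overlaps several gene models, and its identifier belongs to Apela, the gene of an embryonic peptide hormone, in GENCODE.

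**Figure D3:**
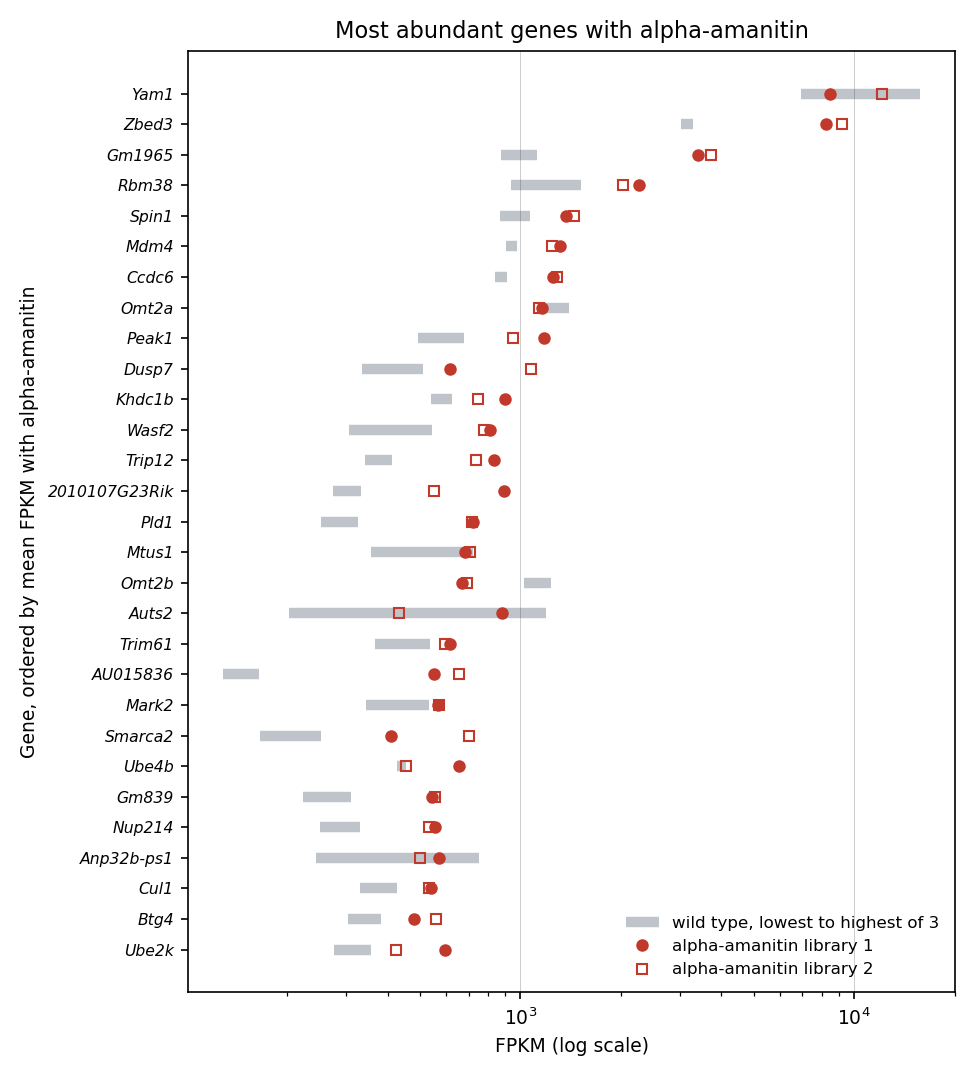
FPKM (log axis) of the genes with the highest mean in the alpha-amanitin libraries, 1 of the first 30 left out, with 1 filled circle for library 1, 1 open square for library 2 and a grey bar from the lowest to the highest of the 3 wild-type libraries. Zbed3 stands at 8251 and 9209 FPKM against 3024 to 3281 in wild type, while Omt2b stands below its wild-type range.

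The order of genes was shared in large part with wild type. Of the 10 most abundant genes 8 were also among the 10 most abundant in wild type, and 72 of 100 and 623 of 1000 were shared at the larger cuts. Of the 30 genes, 28 were within the first 100 in all 9 libraries, the exceptions being AU015836 (rank 175 in wild-type library 3) and Smarca2 (rank 131 in wild-type library 2). The 100 genes that led the blocked embryos held 32.5% and 33.2% of their summed FPKM and 17.5% to 24.2% in the other 7 libraries. Since the alpha-amanitin values chose these genes, that gap is a description. The order was also compared between the 2 alpha-amanitin libraries, which does not bear on that gap. Of the 100 most abundant genes of library 1, 96 lay within the first 200 of library 2. Of the 100 of library 2, 98 lay within the first 200 of library 1.

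Some of the most abundant genes lay close together in the genome. Of the first 200, 23 (11.5%) had another of the 200 within 100000 bases. Among the 200 most abundant genes of wild type it was 16 (8%), and no other sets of genes were examined. The neighbours included Khdc1b and Khdc1c on chromosome 1, Tcl1b1, Tcl1b3 and Tcl1 on chromosome 12, Omt2a and Omt2b on chromosome 9, and Gm1965 and Gm839 on chromosome 6.

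To ask which classes of gene the store held, the members of 30 function lists were counted at 1 FPKM or more in both libraries. The share over all genes, pseudogenes and non-coding RNAs included, was 19.9%, and 27 of the 30 lists lay above it. Against the 27.2% of protein-coding genes, the closer base for these lists, it was 24 of 30. Oocyte-specific families were almost complete. The Tcl1 family, small proteins of the oocyte and early embryo related to an AKT co-activator, had 7 of 7 members detected and a median of 143 FPKM. The median over all genes, pseudogenes and non-coding RNAs included, was 0.0152 FPKM, and the family's median in wild type was 89.8. With alpha-amanitin, Tcl1b1 stood at 347 and 297 FPKM, Tcl1b3 at 215 and 196 and Tcl1 at 214 and 159. All 3 were somewhat higher in library 1.

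The oocyte Nlrp genes, NOD-like receptor relatives expressed in oocytes, had 12 of 13 members detected with a median of 29.6 FPKM. Nlrp4e stood at 145 and 177 FPKM, Nlrp14 at 63.5 and 100.0, and Nlrp9a at 53.7 and 57.2. Nlrp4d was listed at 0 in both libraries and in all 3 wild-type libraries. Members of this family are close in sequence, so reads may have been divided between them.

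The subcortical maternal complex had 7 of 8 members detected, 3 of which (Nlrp5, Nlrp4f and Nlrp2) are also in the Nlrp list. Apart from Zbed3, its levels were modest. Nlrp5 stood at 22.4 and 39.1 FPKM, Nlrp4f at 22.2 and 29.9, Padi6 at 14.7 and 20.6, and Tle6 at 13.5 and 20.5. Khdc3 lay just under the threshold at 0.996 and 0.764 FPKM, and in wild type at 0.982, 0.790 and 8.86.

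Of genes for the egg coat and for oocyte growth factors, 8 of 10 were detected, with a median of 30.7 FPKM. Bmp15, a growth factor that the oocyte sends to the surrounding follicle cells, stood at 463 and 487 FPKM, Oosp1, a secreted oocyte protein, at 319 and 329, and the growth factor Gdf9 at 58.8 and 106. The zona pellucida genes, which encode the egg coat, were lower, with Zp2 at 34.3 and 22.3, Zp3 at 31.6 and 11.7 and Zp1 at 15.7 and 21.5 FPKM. Oocyte transcription regulators were sparser, with 4 of 10 detected and a median of 0.692 FPKM. Ybx2, also called MSY2, a protein that coats stored messages and is counted in the storage list too, stood at 122 and 120 FPKM. The homeobox regulators Lhx8 (17.8 and 25.5) and Nobox (10.2 and 16.8) were detected, while Sohlh1 was listed at 0 in both and Figla at 0.103 and 0.

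The oogenesin, Omt2 and E330 clusters had 15 of 19 members detected. Omt2a stood at 1160 and 1134 FPKM, Omt2b at 669 and 690 and Oog3 at 256 and 265. Pramel6, which is also on the list of genes activated at the 2-cell stage, was listed at 0 in both, against 16.8, 34.9 and 27.6 FPKM in wild type. The F-box list, which holds SCF ligase parts and an oocyte cluster of Fbxw genes, also had 15 of 19 members detected. Cul1 led it, followed by Skp1a at 56.7 and 90.1 FPKM and Fbxw24 at 39.2 and 46.4.

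Machinery that holds messages silent was well covered, with 24 of 28 members detected and a median of 19.9 FPKM. Lsm14a, a protein of RNA granules, stood at 294 and 302 FPKM. Eif4e1b, an oocyte form of the cap-binding factor, stood at 224 and 251, and Eif4enif1, its partner in repression, at 220 and 221. Both libraries gave nearly the same values for these 3 genes. Of the machinery that destroys maternal messages, 25 of 34 members were detected. Besides Btg4, the deadenylase genes Pan3 (385 and 593 FPKM), Cnot7 (439 and 389) and Cnot6l (159 and 167) were abundant. Zfp36, an adaptor for AU-rich messages, lay under 1 FPKM at 0.424 and 0.977, against 12.2 to 18.3 in wild type.

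Chromatin and DNA methylation factors had 30 of 43 members detected, 7 of them at 100 FPKM or more in both libraries. Zfp57, which protects imprinted methylation, stood at 287 and 364 FPKM and Dppa3, which shields maternal DNA methylation, at 185 and 330. Some members were nearly absent. The histone deacetylase gene Hdac1 stood at 0.127 and 0.746 FPKM against 26.8 to 72.0 in wild type, and the demethylase gene Kdm5a at 0.228 and 0 against 11.2 to 17.1.

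Meiosis and cell cycle genes had 28 of 43 members detected. Wee2, the oocyte kinase that holds meiotic arrest, stood at 451 and 420 FPKM, the centriole kinase gene Plk4 at 174 and 113, and cyclin A2 gene Ccna2 at 79.8 and 113. Fbxo5, the gene of the anaphase inhibitor EMI1, lay at 0.868 and 0.907 FPKM against 34.2 to 73.1 in wild type. DNA replication and repair had 30 of 47 members detected, led by the checkpoint kinase gene Chek1 (69.7 and 77.0) and Brca2 (53.3 and 45.0). The third, Pcna, the sliding clamp of replication, was found almost in 1 library only, at 1.34 and 92.6 FPKM.

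The transcription machinery itself was present in the store. Of 12 RNA polymerase II subunit genes 8 were detected, with a median of 4.40 FPKM against 30.8 in wild type. Polr2j stood at 49.2 and 42.0 FPKM and Polr2c at 29.5 and 27.1, while Polr2h was at 0.0809 and 0.107. Mediator and TFIID genes had 28 of 44 members detected, and Med27 stood at 242 and 334, Med15 at 109 and 113 and Taf3 at 109 and 109 FPKM. Of translation factors 26 of 44 were detected, made up of 22 of 39 initiation factors and 4 of 5 elongation factors, led by Eif4g2 (238 and 264), Eif5a (85.0 and 121) and Eif1 (79.2 and 51.6). Chaperones had 22 of 32, led by the heat shock regulator Hsf1 (138 and 142), Hsp90b1 (106 and 84.5) and Dnaja2 (65.5 and 72.4).

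Cytosolic ribosomal protein genes were low. Both libraries detected 7 of 78 members (8.97%), below the share of all genes, with a median of 0.296 FPKM against 4.25 in wild type. The count rests on requiring both libraries, since library 1 alone detected 18 members (23.1%, against 25.0% of all genes and 33.6% of protein-coding genes). Library 2 alone detected 24 (30.8%), which lies above the 24.9% of all genes and below the 33.3% of protein-coding genes. Rpl41 led at 22.5 and 15.7 FPKM, followed by Rpl8 (2.47 and 5.91) and Rpl22 (1.53 and 6.17). Rps9, a small-subunit gene, was nearly missing at 0.836 and 0 FPKM. In all 9 libraries these genes may share reads with pseudogene copies, which was not tested. The 198 rows whose symbols mark ribosomal protein pseudogenes summed to 98.8 and 74.5 FPKM with alpha-amanitin and 906 to 1590 in wild type, next to 79.3 and 88.7 and 793 to 1124 FPKM for the genes. The copies were thus low in the same libraries as the genes.

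Several other housekeeping classes lay above the 27.2% of protein-coding genes in members detected, the proteasome and glycolysis lists only by a little. Proteasome subunits had 10 of 32 members detected (31.2%, median 0.818 FPKM), led by Psmd4 at 16.6 and 9.01, and 18 members in library 1 alone. Ribosome biogenesis genes had 25 of 55 (45.5%, median 1.60), led by Gar1 (31.2 and 39.8) and nucleolin gene Ncl (20.97 and 18.2), while Nop16 was listed at 0 in both and Rrs1 was at 0.665 and 0.177. Spliceosome genes had 30 of 51 (58.8%, median 2.38), led by Hnrnpd at 68.0 and 48.1. Glycolysis and pyruvate use had 10 of 30 (33.3%) and 17 in library 1 alone, led by Ldhb, a lactate dehydrogenase subunit, at 73.6 and 131, while the other subunit gene, Ldha, was at 0 and 0.167. Aminoacyl-tRNA synthetases had 11 of 22 (50%), led by Farsb at 40.6 and 27.7. Their second member, Mars, stood at 0.222 FPKM in library 1 and 21.9 in library 2.

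Nuclear-encoded oxidative phosphorylation genes had 14 of 65 members detected (21.5%), near the share of all genes. Cox8a, a subunit of cytochrome oxidase, stood at 171 and 216 FPKM, and Atp5b, of the ATP synthase, at 107 and 99.7. A further 23 members reached 1 FPKM in 1 library only, so library 1 alone detected 27 and library 2 alone 24. Atp5g1 lay under 1 FPKM in both, at 0.148 and 0.796. None of the 13 protein genes of the mitochondrial genome itself was matched to a measured gene, so they were not analysed here.

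Cytoskeleton genes had 16 of 31 members detected, led by the formin gene Fmn2 (93.0 and 101), Actb (36.4 and 39.5) and Cfl1 (34.1 and 26.7). Small RNA pathway genes had 14 of 26, led by Tdrd1 (33.8 and 60.2), Dicer1 (27.9 and 22.6) and Drosha (25.8 and 17.7). Replication-dependent histone genes had 14 of 58 (24.1%), and 23 in library 2 alone. Hist1h2aa, an oocyte and testis form of H2A, stood at 91.6 and 245 FPKM, Hist1h1a at 88.1 and 143 and Hist1h4d at 75.2 and 100. All 3 were higher in library 2. Histone genes are near-identical copies, so reads may be divided between them.

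Genes that the embryo switches on at the 2-cell stage were low. Their list was chosen with earlier results of these data known, so it is not an independent check of the treatment label. Of 39 measured members 8 were detected (20.5%, near the share of all genes) and 13 were listed at 0 in both, with a median of 0.129 FPKM against 16.4 in wild type. Eif4e3 was the exception, at 81.8 and 76.9 FPKM with 45.9 to 81.1 in wild type, so it was not low. Sp110 followed at 10.01 and 6.92 and Tcstv1 at 5.29 and 11.2. The homeobox gene Crxos was at 0.257 and 0 and Spz1 was listed at 0 in both, against 51.1 to 92.3 and 36.9 to 69.2 FPKM in wild type. Pluripotency and first-lineage genes had 13 of 29 detected. The Hippo effector Yap1 (243 and 298 FPKM), Lin28a (54.2 and 47.6) and Klf17 (22.2 and 41.7) were among them, while Klf5 was at 0.0806 and 0.500 and Dppa4 at 0.0518 and 0.

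Genes of differentiated tissues were rarely detected, with 2 of 44 somatic genes and 1 of 39 Hox genes at 1 FPKM in both libraries. Taken alone, library 1 detected 5 and library 2 detected 6 of the somatic genes, and of the Hox genes 4 and 2. The exceptions were Vil1, the gene of an actin-bundling protein of gut microvilli, at 36.7 and 84.1 FPKM, Pax6 at 4.47 and 2.04, and Hoxa7 at 43.8 and 32.0 FPKM. Hoxa7 and Vil1 were detected in wild type as well (10.1 to 22.1 and 20.97 to 39.98 FPKM). None of the marker genes of cumulus and granulosa cells (11), sperm and testis (10), blood (9), or oviduct and fibroblasts (10) reached 1 FPKM in both libraries. Their summed levels were at most 0.819, 3.32, 3.23 and 1.68 FPKM in either library. In 1 library alone, Odf1 (3.31 FPKM, library 2), Lyz2 (3.15, library 1) and Hba-a1 (1.58, library 2) passed 1 FPKM. In wild type the sums reached 4.70, 5.96, 6.78 and 61.8 FPKM. The oviduct and fibroblast sum in wild type came mostly from Epcam (19.4 to 58.5 FPKM).

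**Figure D4:**
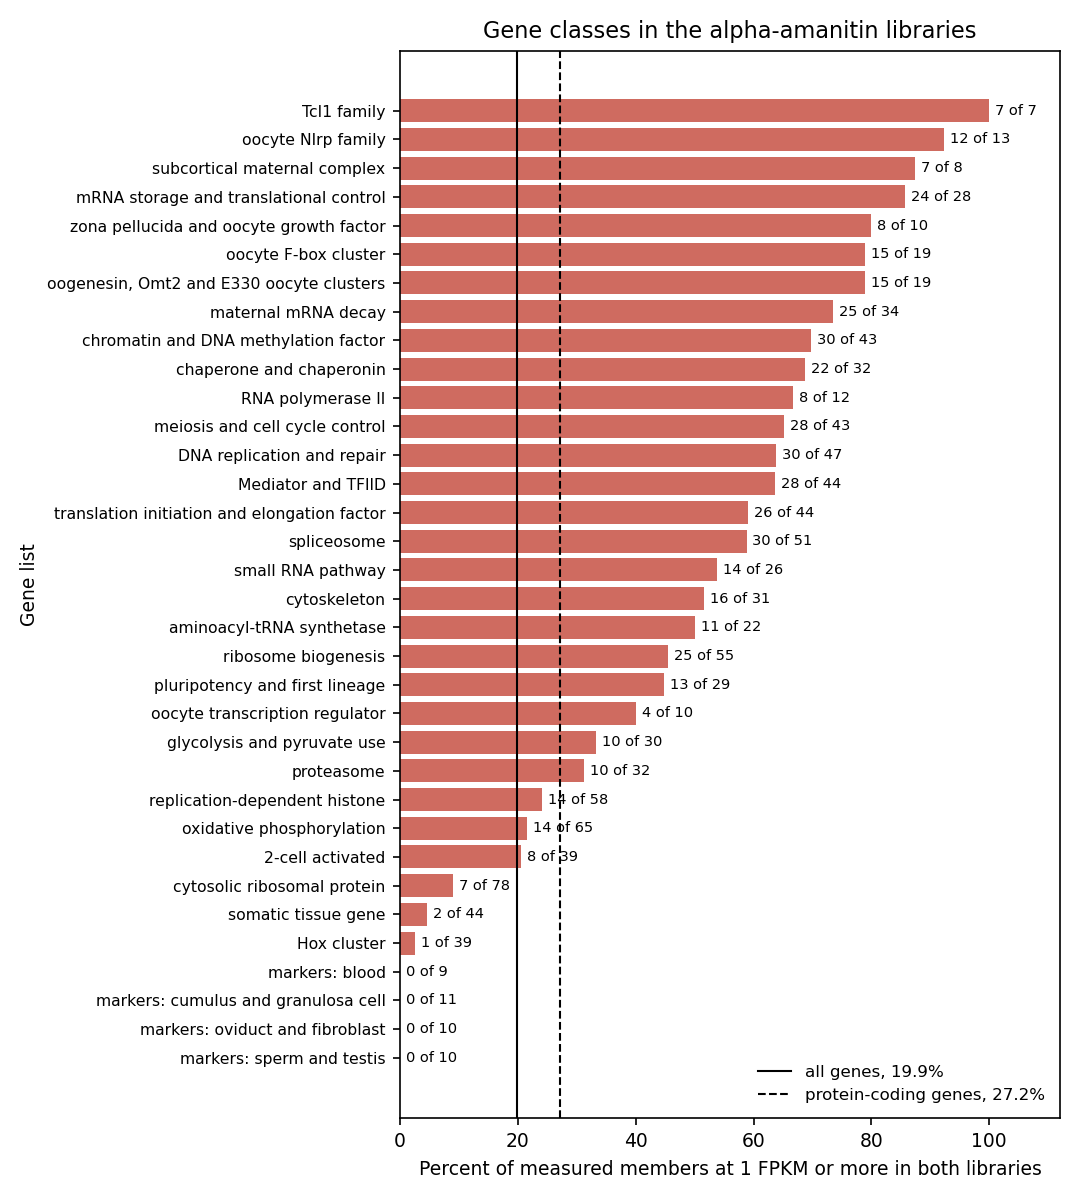
Percent of the measured members of each list that stood at 1 FPKM or more in both alpha-amanitin libraries (bars, counts printed beside them), with lines at the share of all genes (19.9%, solid) and of protein-coding genes (27.2%, dashed). Oocyte families stand at the top, with the Tcl1 family at 7 of 7, and cytosolic ribosomal protein, somatic and Hox genes stand under both lines.

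Whether the level of list members differed from wild type beyond the spread between libraries was tested with limma on log2(FPKM + 1) over 13137 genes, of which 4.31% were higher and 25.1% lower at a Benjamini-Hochberg adjusted p under 0.05. Of 55 ribosome biogenesis genes tested 46 were lower and none higher, of 75 ribosomal protein genes 39 and none, of 37 genes activated at the 2-cell stage 30 and none, and of 31 proteasome genes 19 and none. Of 12 Nlrp genes 3 were higher and none lower, and of 7 Tcl1 genes 2 and none, so few members carry these shares. Some other oocyte and store lists had more members lower than higher, as had all tested genes, so this is not particular to them. Of 19 genes of the oogenesin, Omt2 and E330 clusters none was higher and 5 were lower. Storage genes had 4 higher and 7 lower of 27, and decay genes 6 and 10 of 33. In these 3 lists the lower share lay near the 25.1% of all tested genes. The higher share of the storage and decay lists lay above the 4.31%. Of 51 spliceosome genes 33 were lower and none higher, of 44 translation factors 24 and 1, and of 12 RNA polymerase II genes 9 and none. The median change over all tested genes was -0.56 on the log2 scale and 0.17 after quantile normalization, which moved the part of all calls that were lower from 85.4% to 51.3%. After it, 1716 of the 13137 genes were higher and 1806 lower, which is the base for the counts that follow. Of the lists, 37 ribosome biogenesis, 25 ribosomal protein, 28 activated and 12 proteasome genes were lower and none higher. Of the Nlrp genes 6 were higher, and no Tcl1 gene was. The oogenesin, Omt2 and E330 clusters then had 5 higher and 5 lower, storage genes 7 and 4, and decay genes 5 and 4. Spliceosome genes had 1 higher and 21 lower, translation factors 1 and 17, and RNA polymerase II genes none and 4.

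Transcripts seen in wild type but missing from the store form the other side of the description. Of 4398 genes that averaged at least 10 FPKM in wild type, 474 (10.8%) lay under 1 FPKM in both alpha-amanitin libraries and 96 were listed at 0 in both. Among those averaging at least 100 it was 6 of 298. Vimp, which encodes a selenoprotein of the endoplasmic reticulum, was at 0.0259 and 0.709 FPKM against 353 to 1553 in wild type, but its deposited upper bounds of 191 and 256 FPKM leave that absence uncertain. The phosphate transporter gene Slc34a2 was at 0.751 and 0.0622 against 222 to 265, and the kinase gene Hipk1 at 0.776 and 0.679 against 145 to 186. For Slc34a2 and Hipk1 the upper bounds with alpha-amanitin were at most 1.29 FPKM.

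The other genes of the 10 highest in wild type were Rps9, the pseudogene rows RP23-76P9.1, Gm12625, Gm12622, RP24-142M5.3 and Gm8072, and BC089491. BC089491, named Selenov in GENCODE and so a selenoprotein gene too, at 0 in either alpha-amanitin library, owed its wild-type mean to 1 library, at 0.170, 0 and 1792 FPKM, so the groups overlapped.

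The libraries agreed closely on abundant genes and loosely on rare ones. Over the 8335 genes with a mean of 1 FPKM or more, Pearson's r of log2(FPKM + 1) was 0.787 and Spearman's rho 0.699, as descriptions across genes. Of these genes, 64.7% lay within 2-fold on that scale. The share was 55.0% at 1 to 10 FPKM, 81.2% at 10 to 100, 96.5% at 100 to 1000 and 100% (9 of 9) at 1000 or more. The same measure gave 67.4% to 72.8% within 2-fold for the wild-type pairs, 76.8% for the mismatch controls and 80.0% for the Kdm5a+b morpholino pair, so by this share, and by both correlations, the alpha-amanitin pair was the least alike of the replicate pairs. Among abundant genes it was not, since it shared 82 of its first 100 genes and 828 of its first 1000, against 71 to 83 and 767 to 849 in the other replicate pairs. Its deposited FPKM bounds were also the widest, reaching a median of 21.5% and 24.4% of the FPKM to either side against 11.9% to 19.4% in the other 7 libraries. These bounds overlapped between the 2 libraries for only 37.6% of 7902 genes, so the bounds are narrower than the spread between libraries. Depth in reads is unknown.

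Of the 2406 genes at 10 FPKM or more in the lower library or at a mean of 50 or more, 205 differed over 2-fold and 10 over 4-fold. Higher in library 1 were 2700094K13Rik (253 and 0 FPKM), Sepw1 (674 and 67.3), Ceacam2 (58.4 and 12.7), Il34 (51.1 and 11.8) and Ly6e (45.3 and 10.4). Sepw1 and 2700094K13Rik encode selenoproteins, as does Selt, which was higher in library 2 (18.8 and 149). For these 3 the deposited bounds were very wide, for Sepw1 from 47.8 to 799 FPKM in library 1 and from 15.7 to 316 in library 2, and for each of the 3 the bounds of both libraries overlapped. Also higher in library 2 were the pseudogenes RP23-374K9.2 (13.6 and 90.7) and 2810025M15Rik (13.5 and 73.2).

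The 2 largest differences towards library 2 came from 1 place in the genome. RP23-8J15.3 and Gm10222, both unprocessed pseudogenes, were listed at 0 in library 1 and stood at 234 and 208 FPKM in library 2. They belong to 7 adjacent pseudogene rows at chr1:24611535-24616197, all at 0 in library 1 and at 3.96 to 234 FPKM in library 2. Aligned to the mitochondrial chromosome of the same build, the 7 genomic sequences were 99.7% to 100% identical to it over at least 95% of their length, so reads of mitochondrial RNA cannot be told apart from reads of this nuclear copy. Summed over the 7 rows the level was 675 FPKM in alpha-amanitin library 2, 0.321% of its total, and at most 6.58 FPKM in any of the other 8 libraries. Which RNA or DNA gave these reads was not tested.

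**Figure D5:**
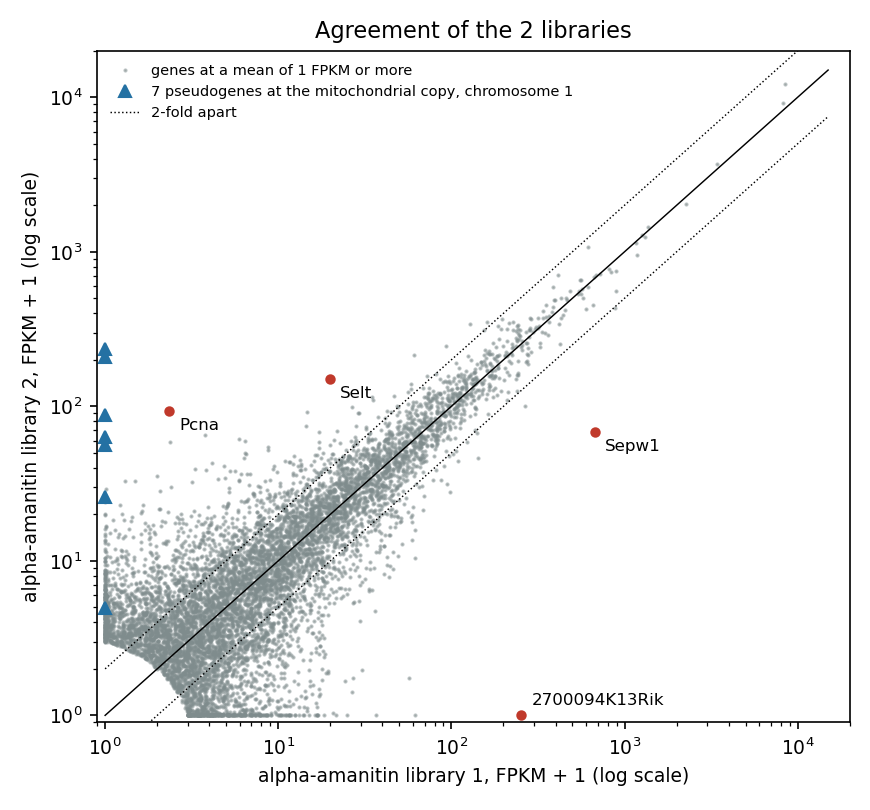
FPKM + 1 of each gene with a mean of 1 FPKM or more in alpha-amanitin library 1 (horizontal log axis) and library 2 (vertical log axis), with lines at equality and 2-fold apart. The cloud narrows upwards, the 7 pseudogenes of the mitochondrial copy (triangles) lie on the axis of library 2, and Sepw1, Selt, 2700094K13Rik and Pcna stand apart.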

How the data were processed

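The authors deposited 1 Cufflinks-style table per library, per the file headers, holding for each of 32287 genes an FPKM, its lower and upper bounds and a status. Per the submitters' processing notes, Cufflinks, BWA, Picard, Trimmomatic and SAMtools were among the tools of the series and mm10 was the build; the sources used here do not give the aligner of the RNA-seq reads, the annotation release, the use of strand or any selection of poly(A) RNA. Per the labels' protocols, RNA came from a QIAGEN RNeasy Micro extraction and libraries followed the TruSeq procedure. FPKM values were used as deposited. Rows without status OK were set aside, 703 with LOWDATA in both alpha-amanitin libraries and 1 with FAIL in library 2. GENCODE M21 of GRCm38 held 31670 of the gene IDs (98.1%) and gave gene types and transcripts. 1 transcript per protein-coding gene was used, by APPRIS rank and then by length.

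limma 3.58.1 (R 4.3.3) was fitted to log2(FPKM + 1) of all 9 libraries with group as the only term, on genes at 1 FPKM or more in at least 2 libraries, with 5 residual degrees of freedom. The fit was first tested on simulated data. Single values per library were compared by exact permutation tests. Pseudogene sequences were aligned to the mitochondrial chromosome with blastn.

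A few genes that the rule for named genes selects are not reported here. The members, the gene lists and the tests were chosen with earlier results of these data known. Named genes are the 30 with the highest mean FPKM, the 3 highest members of each list, the 2 members with the highest wild-type mean among those under 1 FPKM in lists with fewer members detected than not, the 5 genes that differed most between the libraries in each direction, and the 10 highest in wild type among those under 1 FPKM in both. Genes named beyond this rule (Padi6, Tle6, the zona genes, Nlrp4d, Khdc1c, Pax6, Kdm5a, Cnot6l and those named in lists with more members detected than not) were chosen after their values were seen, as were the functional sorting of the 30 genes and the mitochondrial alignment.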

Additional observations from a re-analysis of the deposited data

Results flagged for a closer look

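Gm3470, a processed pseudogene at chr5:99021803-99022222, carries a status of LOWDATA in the deposited tables and is therefore outside every count above. It stood at 539 FPKM in alpha-amanitin library 1 and 713 in library 2, a mean of 626, against 282, 178 and 209 FPKM in wild type and 229 to 416 in the injected libraries. Both alpha-amanitin values lay above all 7 others. It was singled out because its level would place it among the 30 most abundant genes while its row was set aside. Of the 703 rows with this status, 492 are processed pseudogenes, 62 stood at 1 FPKM or more in both alpha-amanitin libraries, and Gm3470 is the only one at 100 or more.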

How the results depend on the processing

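The shares of the 10 and the 100 most abundant genes and the number of genes detected kept their direction under each alternative run, always with the smallest p the design allows (0.2, 0.0556 against 7 libraries, and 0.333 or 0.5 with 1 library left out): all rows, lower bounds, without the most abundant gene, protein-coding genes only, thresholds of 0.5 and 5 FPKM, all 7 other libraries, and each library left out. Agreement within 2-fold, 64.7% as reported, was 83.1% at a mean of 10 FPKM or more, 79.9% with no filter, 56.8% with a pseudocount of 0.1 and 57.9% with TPM. Pearson's r, 0.787 as reported, was 0.887, 0.630 and 0.675 with no filter, the pseudocount of 0.1 and TPM. Between 24 and 28 of the 30 lists lay above the share of all genes. Lists whose count moved over 1.5 times with 1 library alone were the ribosomal protein (7 to 18 and 24), oxidative phosphorylation, proteasome, glycolysis, histone, somatic and Hox lists. At 0.5 FPKM the ribosomal protein count was 14 and the Hox count 3, and these 2 lists alone moved that far. At 5 FPKM 18 of the 30 lists did. Ribosome biogenesis then fell from 25 to 7 members, the spliceosome from 30 to 12, the proteasome from 10 to 3 and RNA polymerase II from 8 to 3. Against wild type, 566 genes were higher and 3299 lower as reported. Quantile normalization gave 1716 higher and 1806 lower (51.3% lower against 85.4%), and the fit to the 2 groups alone gave 339 higher and 2604 lower. Leaving out 1 library at a time gave 298 to 502 higher and 2378 to 3155 lower; the higher count was 362 without alpha-amanitin library 1 and 298 without library 2. A replicate block gave 371 higher and 2744 lower. Whether equal numbers pair the libraries is not known. Deviations of same-numbered wild-type and alpha-amanitin libraries correlated at -0.02 and -0.03 (2 pairs). These values cannot decide it, since deviations of 2 libraries from their mean mirror each other and the morpholino groups were not checked. The share of abundant transcripts with the polyadenylation element was 18.2% in the last 50 bases and 43.9% in the last 200, against 9.95% and 28.4% of all. Leaving libraries out of the shares and of the detected genes, all 7 libraries for the detected genes, and these 2 windows were chosen after seeing the data. The causes of these shifts were not tested. Depth in reads is unknown, so the level below which a gene counts as absent cannot be given in molecules.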

Other observations

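Among genes at a mean of 10 FPKM or more, 25 lay under 1 FPKM in 1 alpha-amanitin library. They include Txnrd1, the gene of a selenoprotein reductase, at 55.8 and 0.740 FPKM, whose deposited bounds of 1.94 to 253 and 0.650 to 336 FPKM overlap almost fully, and the mesoderm regulator T at 23.9 and 0 FPKM, with 0.536, 0 and 0 in wild type. Gfi1b stood at 0 and 25.1 FPKM, and in wild type at 51.4, 2.64 and 0. These genes were picked after their values were seen, and no explanation was tested.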
